A study of Arabidopsis thaliana with 24 samples.

Results

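The response of OX7.5 shoots to sulfur deficit was read from 6 of the 24 arrays of the series, 3 of shoots grown with sufficient sulfur (nS) and 3 of shoots after 4 days in -S, and was tested in 16552 genes that had a probe set of their own. OX7.5 is 1 transgenic Arabidopsis thaliana line in the Col-0 background, in which the selective autophagy cargo receptor NBR1, fused to a TAP tag, is driven by the constitutive 35S promoter. Both groups carry the transgene and differ by label in sulfur supply. Arrays whose titles do not mention low sulphate were taken as nS. The labels give an age of 33 days and name soil, whereas the methods describe hydroponic culture. The arrays of WT (Col-0) shoots and of OX7.5 roots, 3 in nS and 3 in -S for each, were used only to show where the response of OX7.5 shoots differed. NBR1 itself had no probe set assigned to it, so the overexpression could not be checked on these arrays.

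Plants take up sulfate, activate it with ATP sulfurylase, and reduce it through sulfite reductase to sulfide, which is built into cysteine, the source of methionine and glutathione. When sulfate runs short, plants typically induce uptake and assimilation genes, lower the synthesis of sulfur-rich secondary compounds such as glucosinolates, and slow growth and photosynthesis. Autophagy recycles cell contents under nutrient shortage, and NBR1 links ubiquitinated cargo to ATG8 proteins on the autophagosome membrane.

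Replicate arrays of OX7.5 shoots correlated at 0.985 to 0.990 over all probe sets, and no pair was identical. The leaf markers RCA (Rubisco activase) and PRK (phosphoribulokinase) lay at or above percentile 92.7 of every OX7.5 shoot array. Of 3 root markers, EXPA7 and EXPA18 stayed at or below percentile 28.4 there, while PYK10, a root-type beta-glucosidase, lay between percentiles 74.0 and 91.5 and overlapped between nS and -S. All nS arrays belong to one run of sample numbers and all -S arrays to another, so a difference in handling between the runs cannot be told apart from sulfur supply. The values carry no detection calls, and the median of the shoot arrays was 3.95 on the log2 scale, so the size of a change is uncertain where a group lay below it.

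Sulfur deficit raised 952 genes in OX7.5 shoots (5.75% of those tested) and lowered 916 (5.53%), where a call needed a change of 1.5 times or more and a Benjamini-Hochberg adjusted p under 0.05 in limma. The 3 nS and 3 -S arrays did not overlap in 1819 of these 1868 genes, against 31.0% of all genes tested. Large changes were mostly rises, with 72 genes up and 5 down by a fold of at least 4. The median log2 fold change over all genes was -0.00. In 334 of the genes that rose (35.1%), the nS mean lay under the array median, and in 269 of those that fell (29.4%) the -S mean did. Over all genes tested, the mean of the 6 arrays lay under it for 55.8%.

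The largest rise was that of AT2G41730, a member of the list of mitochondrial retrograde and detoxification genes. AT2G41730 read 1.38, 1.78 and 2.16 in nS and 6.53, 6.94 and 6.90 in -S, a log2 fold change of 5.02 ± 0.26 (SE, adjusted p = 4.31e-12, limma). AT2G04050 read 1.20, 1.64 and 1.36 in nS and 5.65, 6.01 and 5.81 in -S (4.42 ± 0.22, adjusted p = 4.23e-12). Both genes were among the dimmest on the nS arrays and well above the median on every -S array, so the groups lay far apart. AT4G12735 rose from 3.13, 3.80 and 5.02 to 8.39, 8.06 and 8.39 (4.30 ± 0.29), and AT2G18193 from 1.76, 1.61 and 1.45 to 5.63, 5.76 and 5.79 (4.12 ± 0.24). The nS arrays of AT4G12735 were widely spread and those of AT2G18193 were close together. The other 8 of the 12 largest rises lay between 3.12 and 3.48 on the log2 scale (AT2G25625, AT5G50360, AT1G57630, AT4G12731, AT2G04070, AT5G57510, AT5G51440 and AT4G00700). The largest rises and falls were ranked only among called genes whose nS and -S arrays did not overlap.

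**Figure D1:**
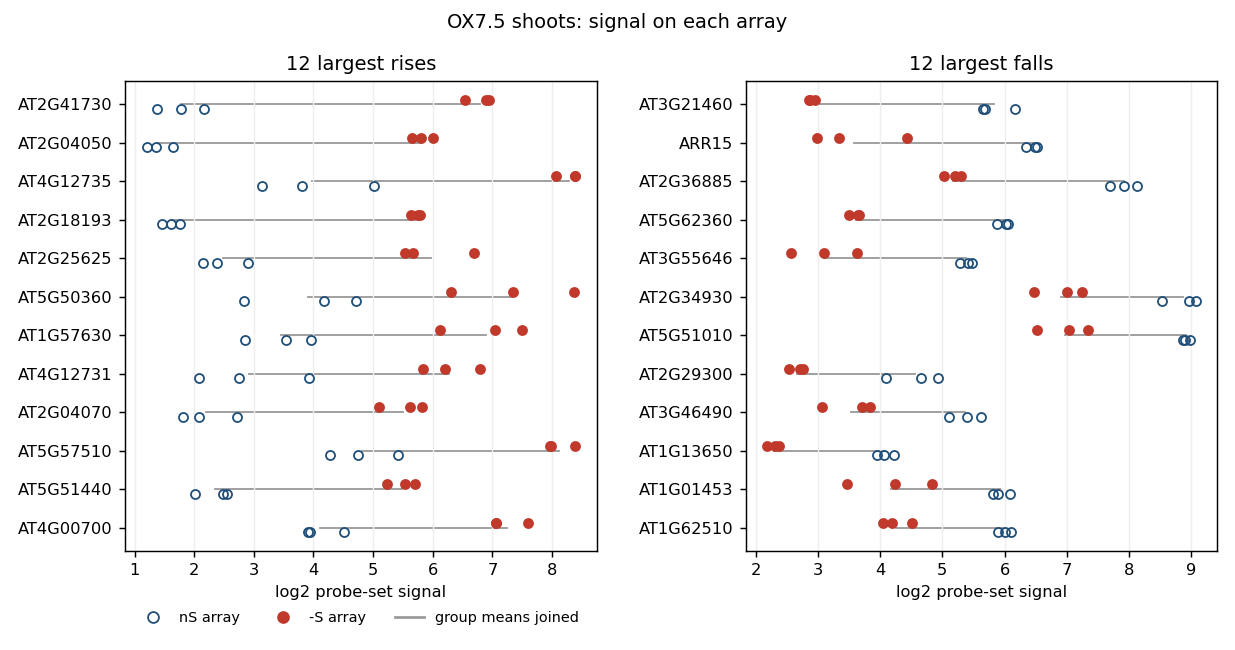
Log2 probe-set signal (x axis) on each OX7.5 shoot array for the 12 genes with the largest rise (left) and the 12 with the largest fall (right), with open circles for nS, filled circles for -S and a line joining the group means. Only called genes without overlapping groups were eligible. The rises reach 5.02 on the log2 scale while the falls stop at -2.94.

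The largest fall was that of AT3G21460, 1 of the CC-type glutaredoxins, small redox proteins of a plant-specific class. AT3G21460 read 6.17, 5.68 and 5.65 in nS and 2.86, 2.88 and 2.94 in -S (-2.94 ± 0.19, adjusted p = 1.44e-10, limma). The 3 -S arrays were nearly equal and lay under the array median. ARR15, a type-A response regulator of cytokinin signalling, read 6.52, 6.34 and 6.50 in nS and 2.99, 3.33 and 4.43 in -S (-2.87 ± 0.28, adjusted p = 1.2e-07), with a wider spread in -S. AT2G36885 fell from 7.69, 8.14 and 7.92 to 5.30, 5.03 and 5.19 (-2.74 ± 0.21) and stayed above the array median in both supplies. Falls of -1.75 to -2.38 were measured for the other 9, AT5G62360, AT3G55646, AT2G34930, AT5G51010, AT2G29300, AT3G46490, AT1G13650, AT1G01453 and AT1G62510.

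Several of these genes lay beside others that moved the same way, in blocks picked after their values were seen. AT2G29290, AT2G29300, AT2G29310 and AT2G29320 are consecutive loci and fell by 1.44, 1.89, 1.64 and 1.45 on the log2 scale, and TRI, the next locus, fell by 0.71. AT2G29340 beyond it was at 0.03 (adjusted p = 0.954). The subtilase genes SBT3.5 and SBT3.3, which encode serine proteases, and AT1G32950 between them rose by 2.42, 1.76 and 2.66, whereas AT1G32970 was at 0.20. Of 8 subtilases read by symbol, 2 rose and 6 were not called, with a median of -0.04. AT1G47395 and AT1G47400 rose by 2.99 ± 0.51 and 2.80 ± 0.37. Cross-hybridization between similar neighbours was not tested.

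Among genes that carry a symbol, PUB54, a U-box protein of the ubiquitin ligase type, rose most, from 2.42, 2.34 and 2.58 to 5.63, 5.78 and 5.26 (3.11 ± 0.24, adjusted p = 2.99e-09). MSRB8, SBT3.5, PRX52 (a peroxidase), scpl16 (a serine carboxypeptidase-like protein), Hsp70-2 (a chaperone), WRKY41 (a transcription factor), ATOBGM, SAL2 and CHI (a chitinase) rose by 2.20 to 2.47. After ARR15, the symbol-bearing genes that fell most were THI2.2, a thionin, at -1.50 ± 0.17 and Cpn60beta2, a plastid chaperonin subunit, at -1.37 ± 0.23. CRR21, EXPB3, PSAN, CRR41, EXPA8, SWEET16 and GH9C2 followed, at -1.36 to -1.21.

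Genes of sulfur metabolism did not move as one block. Only 3 of 12 sulfur deficit markers were measured, and 1 of them passed the test: AT1G12030 read 2.94, 2.86 and 2.89 in nS and 3.54, 4.02 and 3.66 in -S (0.84 ± 0.27, adjusted p = 0.033). That call was lost in 7 alternatives, at adjusted p up to 0.151. BGLU28, a beta-glucosidase used as a marker of sulfur deficit, read 2.77, 2.92 and 2.79 in nS and 3.31, 2.61 and 2.52 in -S, so its groups overlapped around a change of -0.01 ± 0.34. AT1G04770 was at 0.13 ± 0.19. None of the 12 sulfate transporters had a value, nor did any gene of the indolic glucosinolate, phosphate or nitrate lists.

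APS4, an ATP sulfurylase, read 3.36, 4.01 and 4.05 in nS and 4.34, 4.34 and 4.86 in -S (0.71 ± 0.17, adjusted p = 0.00402). The call was lost in 3 alternatives, since APS4 came to 0.49 without nS replicate 1 and to 0.53 without -S replicate 3, and to an adjusted p of 0.0662 with the arrays of the contrast alone. SIR, sulfite reductase, fell from 8.35, 8.69 and 8.52 to 7.72, 7.56 and 7.84 (-0.82 ± 0.13, adjusted p = 0.000108), with no overlap. APS3, another ATP sulfurylase, was at -0.48 ± 0.25 (adjusted p = 0.24). Of 24 assimilation genes listed these 3 were measured.

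In aliphatic glucosinolate synthesis, 4 of 30 genes were measured and 2 fell, UGT74B1, which glucosylates thiohydroximates, at -0.62 ± 0.17 and AT2G31790 at -0.60 ± 0.17. Both lie close to the fold threshold and lost the call in 3 and 5 alternatives. GSTU20 was at -0.45 (adjusted p = 0.327) and AOP3 at -0.01.

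Methionine sulfoxide reductases repair oxidized methionine, and 2 of the 7 measured rose, 1 fell and 4 were not called, with a median of 0.09. MSRB8 read 1.46, 1.45 and 1.84 in nS and 4.51, 4.18 and 3.47 in -S (2.47 ± 0.27), and MSRB9 rose by 1.55 ± 0.30. MSRB6 went the other way, from 5.47, 5.51 and 5.35 to 4.56, 4.20 and 4.23 (-1.11 ± 0.18). Among genes named after their values were seen, SUFE2, an activator of cysteine desulfurase in iron-sulfur cluster assembly, rose by 1.29 ± 0.18, and SAL2, a paralogue of the phosphatase SAL1 that removes a by-product of sulfation, by 2.27 ± 0.23. GR1, a glutathione-disulfide reductase, also rose by 1.05 ± 0.17. The metallothioneins MT1C and MT1B, cysteine-rich metal-binding proteins, rose by 1.71 ± 0.37 and 0.98, the latter from a level far under the array median and with the call lost in 5 alternatives.

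All 20 CC-type glutaredoxins were measured, and 7 fell and 3 rose, with a median of -0.14. Besides AT3G21460, the largest fall was that of AT3G62950, from 3.28, 2.90 and 3.50 to 1.82, 1.59 and 1.78 (-1.50 ± 0.15). AT4G15660, AT4G15670, AT4G15680 and AT4G15700, members of 1 block of neighbouring loci, fell by 1.01, 1.06, 1.21 and 0.60, and AT4G15690 of the same block was at -0.44 (adjusted p = 0.119). AT5G18600 fell by 0.68. AT4G15700 lost the call in 9 alternatives, among them the replicate block (adjusted p = 0.0565), AT4G15660 in 3, and AT4G15670 and AT5G18600 in 2. GRX480, AT2G47870 and AT4G33040 rose by 0.82, 0.80 and 0.77, and lost the call in 8, 5 and 1 alternatives.

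**Figure D2:**
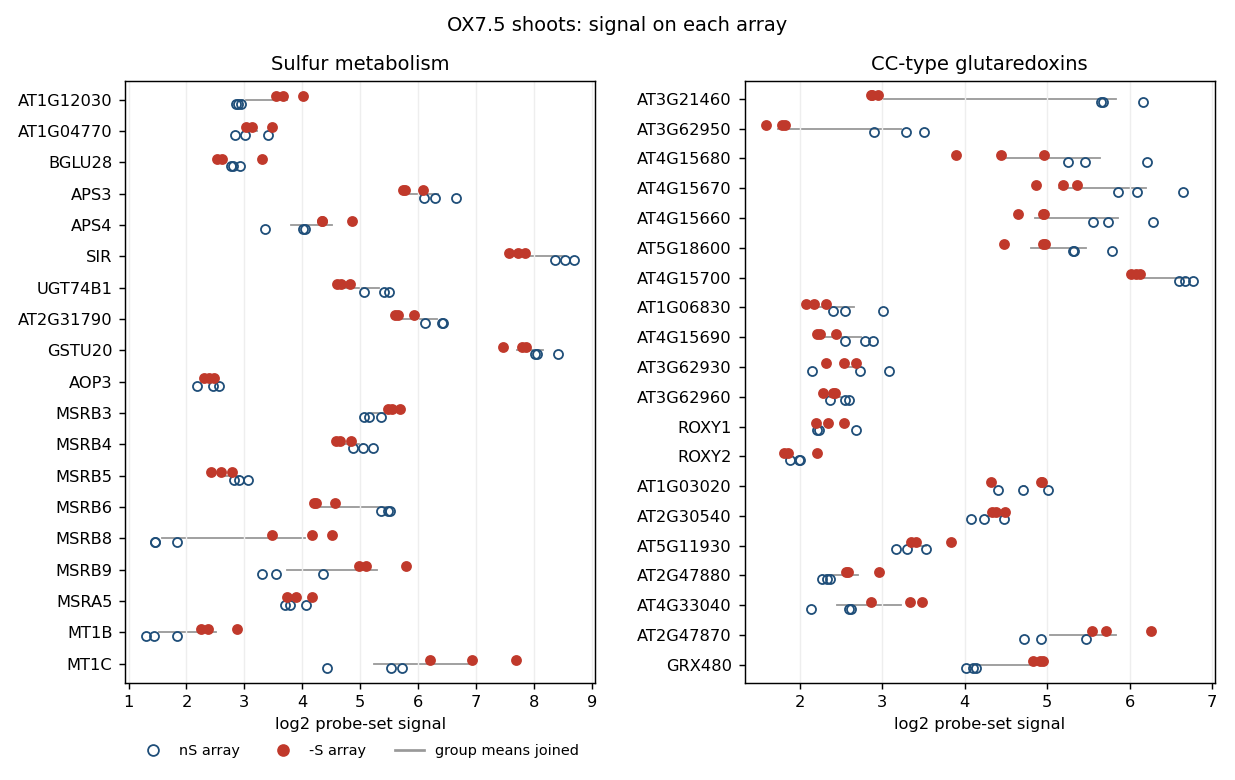
Log2 probe-set signal (x axis) on each OX7.5 shoot array for measured sulfur list members, methionine sulfoxide reductases and metallothioneins (left) and for the 20 CC-type glutaredoxins (right), with open circles for nS, filled circles for -S and a line joining the group means. MSRB8 and AT3G21460 separate most, while BGLU28 and ROXY1 overlap.

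All 10 measured plastid ribosomal proteins of 41 listed fell, with log2 fold changes of -0.76 to -1.23 and a median of -0.98, against a median of -0.00 over all genes. AT3G13120 read 9.72, 9.65 and 9.63 in nS and 8.68, 8.69 and 8.72 in -S (-0.97 ± 0.12, adjusted p = 3.82e-06), and AT5G24490 fell from 9.41, 9.40 and 9.27 to 8.09, 7.94 and 8.37 (-1.23 ± 0.16). All 10 lay above the array median in both supplies. None had overlapping groups, which also held for 97.4% of all called genes and 31.0% of all genes tested. In whole shoots, fewer cells of a type and less RNA per cell cannot be told apart.

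The plastid NADH dehydrogenase-like complex carries electrons around photosystem I. A set of 7 nuclear genes for its subunits and assembly or editing factors was read by symbol after values were seen. Of these, 6 fell (85.7%, against 5.53% of all genes). They were CRR21, CRR41, CRR42, NdhN, NdhU and CRR22, at -1.36 to -0.71, with the call of CRR22 lost in 1 alternative. NdhL was at -0.58. Of 8 measured genes of the list of light-harvesting and photosystem genes, 3 fell (PSAN, PSBW and PSBY), while PSAE-1 was at -0.51, LHCB4.1 at -0.46, LHCB4.2 at -0.40, LHCB4.3 at -0.23 and LHB1B2 at -0.21. In a wider set of 17 photosystem proteins and assembly factors read by symbol, which holds these 8, 10 fell and 7 were not called, led by PSAN, a photosystem I subunit, from 9.83, 9.72 and 9.76 to 8.53, 8.02 and 8.71 (-1.35 ± 0.19). The assembly factors PAM68 and LPA2 fell by 1.06 and 0.88, and the light-harvesting-like proteins LIL3:1 and LIL3:2 by 1.02 and 0.75. PSBW and PSBY, photosystem II subunits, were at -0.64 and -0.59 and lost the call in 2 and 4 alternatives. Of 8 genes for tetrapyrrole synthesis, the pathway to chlorophyll and haem, 3 fell, CHLM at -1.02, HEME2 at -0.99 and HEME1 at -0.84, and 5 were not called. Of 4 measured genes of Rubisco and the Calvin cycle, SBPASE and PRK fell by 0.72 and 0.69, and PRK lost the call in 6 alternatives. RCA was at -0.33 (adjusted p = 0.157) and AT1G56190 at -0.14 (adjusted p = 0.669).

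Of 63 genes of the plastid genome itself, 4 were lower (6.35%, against 5.53% of all genes) and none higher, with a median of -0.07. These genes are among the brightest of the array, with nS means of 9.04 to 12.95, and how far the signal can still follow a change at that level was not tested. Those 4 were rps16 (-1.07 ± 0.19), rpoC2, rps18 and rpoB, which encode ribosomal proteins and subunits of the plastid RNA polymerase. The other 59 were not called, among them rpl14, also a ribosomal protein gene, at -0.09. The plastid ascorbate peroxidases SAPX and TAPX both fell, SAPX from 5.60, 5.71 and 5.86 to 4.79, 4.51 and 4.87 and TAPX by 0.86. Of 7 thioredoxins, ty2 and TRXF2 fell by 0.99 and 0.81 and 5 were not called. The calls of TRXF2 and rpoB were lost in 3 and 1 alternatives. These families were read from gene symbols after values were seen, as were those of the paragraphs that follow except where a list is named. The same holds above for methionine sulfoxide reductases, metallothioneins, the wider photosystem set and tetrapyrrole synthesis. No test was made of any of these families as groups.

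**Figure D3:**
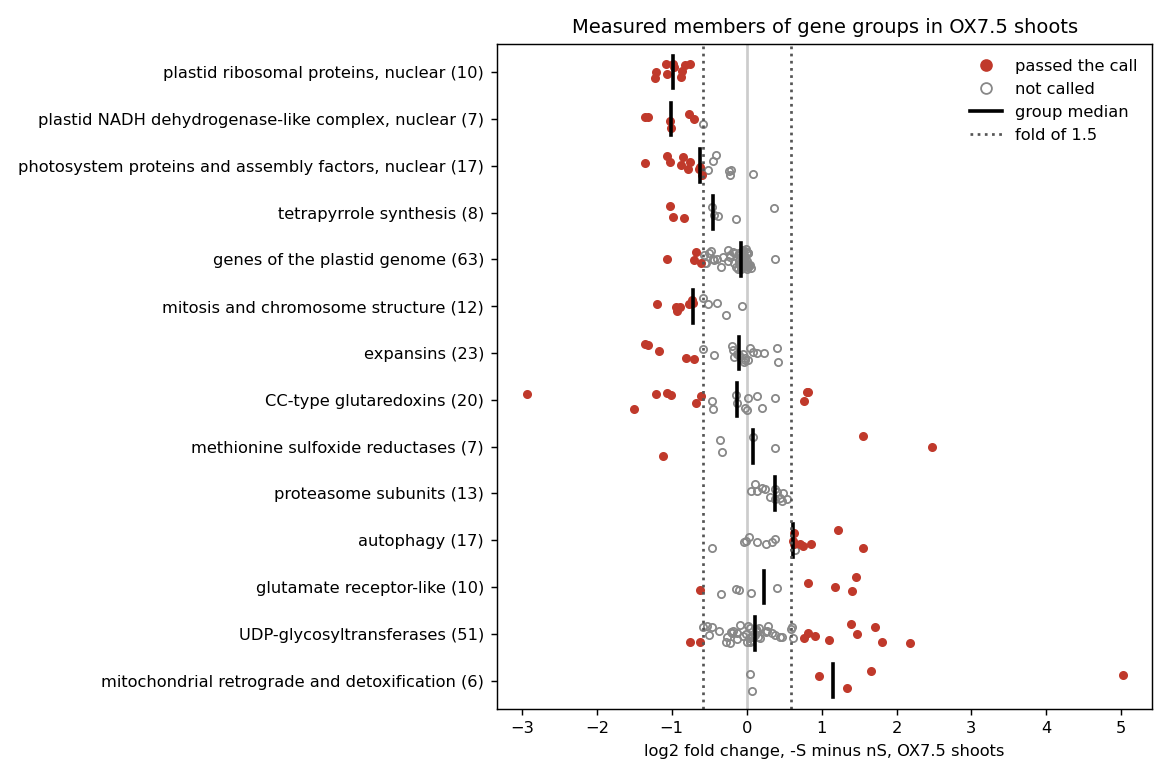
Log2 fold change of -S against nS in OX7.5 shoots (x axis) for every measured member of 14 gene groups, with the number of members in brackets, filled circles for genes that passed the call, open circles for those that did not, bars for group medians and dotted lines at a fold of 1.5. The 10 plastid ribosomal proteins all lie left of the dotted line, and the 13 proteasome subunits lie between 0.06 and 0.53.

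The list of cell division genes had 1 measured member, PRL, at -0.58 and not called. Of 12 genes for mitosis and chromosome structure 7 fell and none rose, with a median of -0.72, in a set read by symbol. BUBR1, a spindle checkpoint protein, read 5.26, 5.43 and 5.63 in nS and 3.96, 4.14 and 4.64 in -S (-1.19 ± 0.20). ATSMC2, AUR2, TOPII, BUB3.1, AUR1 and KINESIN-12B fell by 0.95, 0.93, 0.88, 0.76, 0.73 and 0.72, with the call lost for AUR1 in 7 alternatives and for KINESIN-12B in 2. Of 7 tubulins 3 fell and 4 were not called, TUB1 by 1.06, TUB6 by 0.65 and TUBG1 by 0.63, the last with the call lost in 3 alternatives. Of 4 stomatal genes, SPCH, which starts the stomatal lineage, fell by 1.14 ± 0.29 and STOMAGEN, a peptide that promotes stomata, by 0.59, and both lost the call in at least 3 alternatives, while FMA and MUTE were at -0.12 and -0.22 and not called. Expansins loosen cell walls, and 5 of 23 fell, with a median of -0.10 over all 23, EXPB3, EXPA8, EXPB1, EXPA15 and EXPA16, at -1.36 to -0.70, of which EXPB1 alone kept the call in every alternative.

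Autophagy genes that were called went the other way. Of 40 listed, 17 were measured, with a median of 0.61. Of these, 8 rose (47.1%, against 5.75% of all genes) and none fell (against 5.53%). The other 9 were not called, among them AT1G49180 at -0.47, AT3G18770 at -0.01 and ATG3 at 0.14. ATG8H read 4.36, 4.23 and 4.43 in nS and 6.03, 6.20 and 5.44 in -S (1.55 ± 0.25, adjusted p = 7.92e-05), and ATG8B rose from 3.50, 3.88 and 4.06 to 5.16, 5.25 and 4.69 (1.22 ± 0.22). ATG8E, ATG8D and ATG8G rose by 0.86, 0.75 and 0.72. ATG8C and ATG8F were at 0.03 and -0.03, so members of the ATG8 family differed in their response. ATG8E, ATG8G, AT3G61960, AT5G66930 and AT3G53930 each lost the call in 2 to 6 alternatives, and the list median came to 0.37 without nS replicate 1.

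Proteasome subunits showed small changes of 1 sign. All 13 measured of 52 listed were above 0, from 0.06 to 0.53, and none reached the fold threshold. In the endoplasmic reticulum, the chaperone gene BIP1, which stayed under the array median, the stress regulator BZIP60 and CRT1b, a calreticulin, rose by 1.03, 1.18 and 0.86. They were 3 of 4 genes in that set, and 1 was not called. Of 7 heat shock proteins listed and measured 2 rose, AT5G51440 from 2.01, 2.56 and 2.48 to 5.24, 5.71 and 5.53 (3.14 ± 0.18) and AT3G09440 by 1.72 ± 0.22. Fes1A, a cytosolic co-chaperone of Hsp70, rose by 2.00 ± 0.27 and its relative Fes1B fell by 0.95 ± 0.14.

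Of 6 measured genes of mitochondrial retrograde response and detoxification, 4 rose in OX7.5 shoots, with AT2G21640 at 1.66 ± 0.19 and NDB2, an alternative NADH dehydrogenase of mitochondria, at 1.33 ± 0.21 after AT2G41730. The fourth, AT1G05675, was at 0.96 ± 0.30 and lost the call in 5 alternatives, at adjusted p up to 0.114. Among 51 UDP-glycosyltransferases, which attach sugars to hormones, secondary compounds and foreign molecules, 9 rose and 2 fell. UGT87A2 went from 6.85, 7.20 and 7.61 to 9.49, 9.63 and 9.08 (2.18 ± 0.25), and UGT76E12, UGT76B1, UGT73B2 and UGT73B5 rose by 1.81, 1.72, 1.47 and 1.40. Besides UGT74B1, UGT76C2 was lower, at -0.75, with the call lost in 4 alternatives. Glutamate receptor-like channels had 4 of 10 members up, GLR2.8, GLR1.4, GLR2.7 and ATGLR1.2, at 1.46 to 0.81, and GLR3.6 down at -0.62, with its call lost in 1 alternative. WRKY41, WRKY6 and WRKY47 were 3 of 7 WRKY factors and rose by 2.36, 1.99 and 0.87. Of 6 calmodulin-like proteins, the calcium-binding CML37 and CML41 rose by 1.44 and 1.18 and 4 were not called.

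Of 13 defence peptides and chitinases, CHI, OSM34, an osmotin, and ChiC, a chitinase, rose by 2.20, 2.08 and 0.92, THI2.2 fell, and 9 were not called. SAG101, a partner of EDS1 in immune signalling and the only measured gene of its list of salicylic acid and pathogen response, read 3.95, 3.99 and 3.75 in nS and 4.95, 4.75 and 4.75 in -S (0.92 ± 0.16, adjusted p = 0.000262). Of 10 U-box proteins 3 rose, PUB24 by 1.22 and PUB39 by 0.76 besides PUB54. Among 23 beta-glucosidases, BGLU31 and BGLU25 rose by 2.11 and 1.02 and BGLU47 fell by 1.09, and among 32 serine carboxypeptidase-like genes 3 rose (scpl16, SCPL49 and scpl46) and scpl42 fell by 0.96. Of 15 glutathione S-transferases, GSTU18 fell from a mean of 7.11 to 6.01 and GSTU27 rose by 0.63. These 3 families had 8.70%, 9.38% and 6.67% of members up and 4.35%, 3.12% and 6.67% down, near the 5.75% and 5.53% of all genes. ChiC, GSTU27, BGLU47 and scpl46 lost the call in 6, 5, 2 and 1 alternatives. SAG29, the only measured senescence gene, was at 1.20 ± 0.43 and did not pass (adjusted p = 0.0585). BHLH101, an iron deficiency regulator, rose by 0.63 from a dim level, with the call lost in 5 alternatives.

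Of 10 isocitrate and succinate dehydrogenases, 3 rose, IDH-VI, SDH1-1 and IDH-V, by 1.16, 1.14 and 0.94, and 7 were not called, with a median of 0.09. Among genes named after their values were seen, AMY1, an alpha-amylase, rose by 1.88 ± 0.20, PPDK, pyruvate orthophosphate dikinase, by 1.58 ± 0.20 and APL3, a subunit of ADP-glucose pyrophosphorylase, by 1.21 ± 0.18. Among 16 SWEET sugar transporters, SWEET4 and SWEET13 rose by 1.41 and 1.08, while SWEET16 and SWEET17, which act at the vacuole, fell by 1.28 and 0.67, the latter with the call lost in 2 alternatives. In hormone lists, both measured cytokinin genes fell, ARR15 as above and RR16 by 0.67. The nS and -S arrays of RR16 overlapped, and its call was lost in 8 alternatives. RR18, a further response regulator, fell by 0.93. Of 8 response regulators read by symbol, 3 fell and 5 were not called, with a median of -0.195. None of 5 measured genes of abscisic acid, drought and cold, of 4 of flavonoid synthesis or of 5 network hubs that the study names passed the test in this comparison, and 2 of 5 clock genes did, AT1G69570 at 1.24 and COR27 at 1.15. For the hub that the study prints as At2g45349, AT2G45340 was read.

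The response of OX7.5 shoots was compared with that of WT shoots, which share no array with it. WT shoots had 8.62% of genes up and 9.42% down under the same call. Of the 952 genes that rose in OX7.5, 768 rose in WT, and of the 916 that fell, 712 fell in WT, with 4 genes called in opposite directions. The difference between lines itself passed an adjusted p under 0.05 for 89 genes (0.538%), lower in OX7.5 for 57 and higher for 32, and 35 of them were among the 1868. At an unadjusted p under 0.05 the difference was met by 1479 genes.

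COR27, a cold-regulated gene tied to the clock, differed most clearly. COR27 read 7.73, 7.90 and 8.16 in nS and 8.80, 9.40 and 9.04 in -S in OX7.5, whereas WT means were 4.64 ± 0.70 in nS and 9.18 ± 0.11 in -S (SD, n = 3). The rise was thus 1.15 in OX7.5 and 4.53 in WT, a difference of -3.38 ± 0.32 (adjusted p = 3.24e-06, limma). With the spread taken from shoot arrays alone, the adjusted p of this limma test was 0.00995. The lines were close in -S. AT1G10585 rose by 1.72 in OX7.5 and 4.20 in WT, and AT1G70640 by 0.06 and 2.51. In the opposite direction, AT1G19210 was at 0.41 in OX7.5 and -2.05 in WT, and AT1G20500 at -0.20 and -1.99.

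Most genes with a called difference between lines passed in nS alone when each supply was tested on its own. Both tests use the arrays that picked these genes, so the split only describes them. Of the 57 genes with a lower response in OX7.5, 55 differed between OX7.5 and WT in nS alone, and of the 32 with a higher response 24 did so. Over all genes, 1.70% differed between the lines in nS and 0.0785% in -S at an adjusted p under 0.05. The count of 89 was not firm: it was 11 with the spread taken from shoot arrays alone and 25 without moderation, and leaving out WT nS replicates 1, 2 and 3 in turn gave 56, 215 and 43, with 54 without WT -S replicate 2, 47 without OX7.5 nS replicate 2 and 141 without OX7.5 -S replicate 2. COR27, AT1G10585, AT1G70640 and AT1G20500 passed in all 20 alternatives and AT1G19210 in 19.

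**Figure D4:**
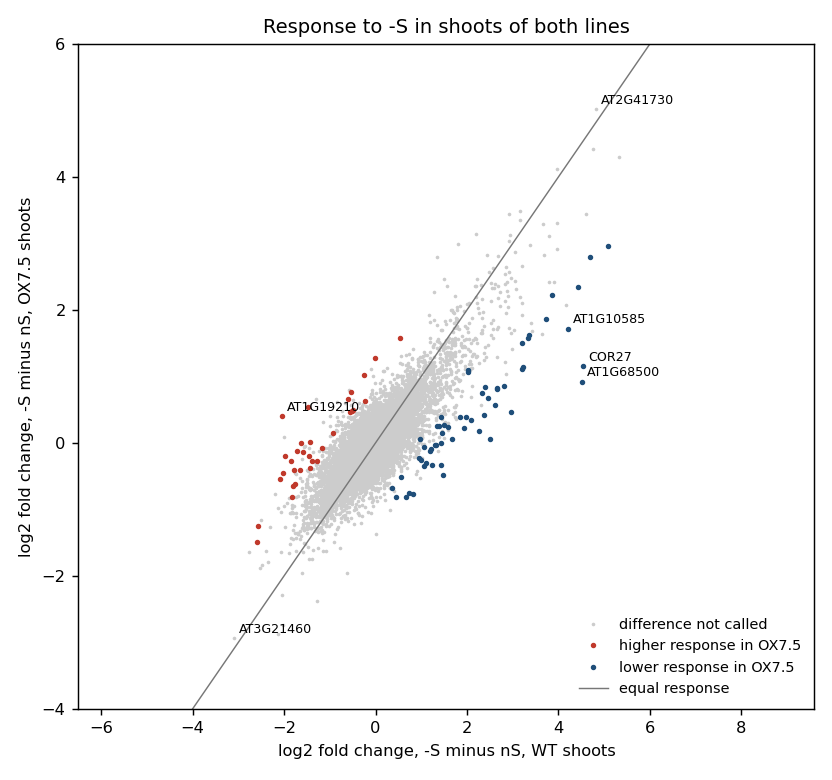
Log2 fold change of -S against nS in WT shoots (x axis) and in OX7.5 shoots (y axis) for 16552 genes, with the line of equal response and coloured points for the 89 genes whose response differed between the lines. COR27 lies far under the line, at 1.15 against 4.53.

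The plastid and autophagy groups of OX7.5 shoots had no member that passed the difference between lines. Plastid ribosomal proteins had a median of -0.98 in OX7.5 and -1.10 in WT, and the autophagy list 0.61 and 0.51. The glutaredoxins of the AT4G15660 block fell in OX7.5 and read 0.31, -0.09, -0.32 and 0.29 in WT for AT4G15660, AT4G15670, AT4G15680 and AT4G15700, but the difference was not called for any of them (adjusted p from 0.159 to 0.447). THI2.2 fell less in OX7.5 than in WT, by 1.50 against 2.59, and its difference of 1.09 was called, as was that of GLR3.6, at -0.62 in OX7.5 and -1.77 in WT (difference 1.14, adjusted p = 0.0096, limma).

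The response of OX7.5 shoots was next set against that of OX7.5 roots, in which 7.79% of genes rose and 7.10% fell. The responses differed by a fold of at least 1.5 at an adjusted p under 0.05 in 2627 genes, higher in shoots for 8.25% and lower for 7.62%, and the count was 1645 with dim genes left out. Of the genes that rose in shoots, 256 rose and 56 fell in roots, and 478 had a called difference with the higher response in shoots. Among those that fell in shoots, 102 fell and 26 rose in roots, and 449 had a called difference with the lower response in shoots. The shoot arrays that picked these genes also enter the difference, so the counts of 478 and 449 are partly built in by that choice.

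The median of OX7.5 root arrays was 2.59, and a gene dim in roots could hardly fall there. Of the 449 genes, 300 had both root means under that median, and of the 478, 148 did.

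The 5 most negative differences belonged to genes that rose in roots and were not called in shoots. GSTU25, a glutathione S-transferase of the detoxification list, read 1.63, 1.71 and 1.99 in nS and 1.67, 1.94 and 1.84 in -S in shoots, and rose by 6.27 in roots (difference -6.23 ± 0.33, adjusted p = 2.3e-12, limma). AT2G38823 was at -0.36 in shoots and 5.97 in roots, and AT5G38910, AT5G13210 and AT5G09570 differed by -5.84, -5.84 and -4.89. In the opposite direction, AT2G22122, GLR2.3, AT5G14120, AT1G70880 and AT4G39675 were not called in shoots and fell in roots, with differences of 3.60 to 4.45.

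Some genes with a large shoot response also differed between organs, and others did not. AT4G12731 rose by 3.36 in shoots and 3.80 in roots, and AT5G57510 by 3.30 and 3.05. Neither had a called difference (adjusted p = 0.628 and 0.737, limma). AT2G41730 rose by 5.02 in shoots and 7.74 in roots (difference -2.73, adjusted p = 1.3e-05), while AT2G25625 rose by 3.48 in shoots and was at 0.10 in roots, at means of 0.69 and 0.80. AT3G21460 was at -2.94 in shoots and -0.20 in roots (difference -2.74, adjusted p = 1.38e-07), where its means were 1.34 in nS and 1.14 in -S. APS4 rose in shoots and was at -1.33 in roots (difference 2.04, adjusted p = 1.65e-06), and BGLU28, flat in shoots, was at 3.86 in roots (difference -3.87, adjusted p = 4.98e-06). For 6 of the 7 nuclear genes of the NADH dehydrogenase-like complex the response was lower in shoots, but all 7 were dim in roots, at nS means of 0.85 to 1.49, so a fall there could hardly have been measured. For plastid ribosomal proteins it was lower for 5 and higher for 1, AT5G24490, which was at -2.18 in roots.

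**Figure D5:**
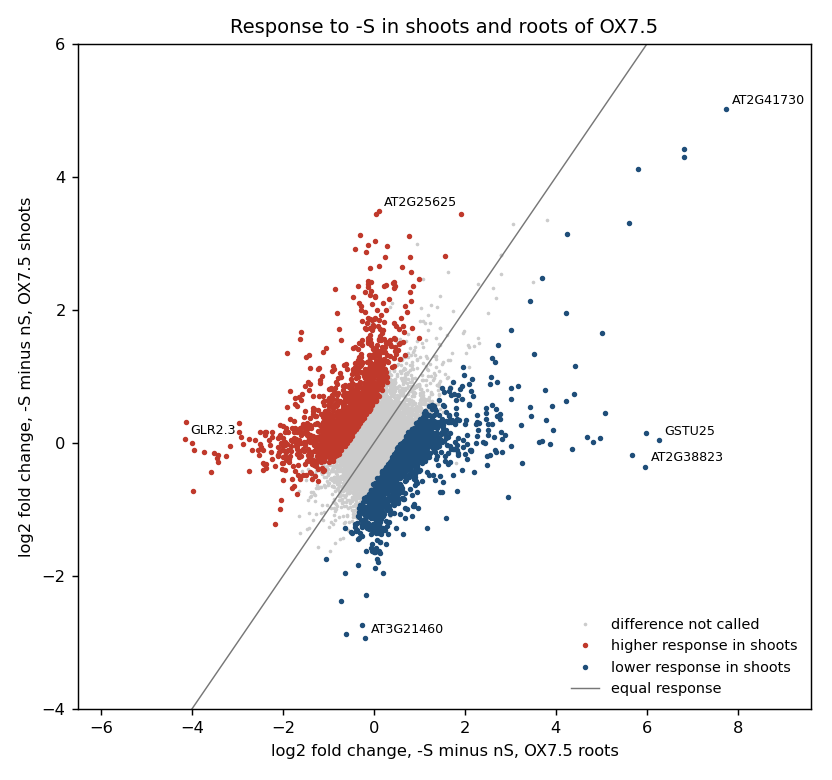
Log2 fold change of -S against nS in OX7.5 roots (x axis) and in OX7.5 shoots (y axis) for 16552 genes, with the line of equal response and coloured points for the 2627 genes whose response differed between organs. GSTU25 and AT2G38823 lie far right at a shoot change near 0, and AT2G25625 lies high at a root change of 0.10.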

How the data were processed

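The authors deposited log2 probe-set values that they made with RMA in Partek from Affymetrix Arabidopsis Gene 1.1 ST arrays, with versions not given in the sources used here. Shoot and root arrays have medians apart and appear to have been normalized separately, so only responses were compared between organs. Of 28583 deposited probe sets, 16746 had exactly 1 gene in the platform annotation, 758 several and 11079 none. The brightest probe set per gene was kept, which left 16552 genes, 16512 of them matched to the TAIR10.1 gene table, and 1752 with a symbol.

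All 24 arrays entered 1 limma model (limma 3.58.1, R 4.3.3) with a mean for each group (16 residual degrees of freedom) with empirical Bayes moderation and Benjamini-Hochberg adjustment. Differences between lines were called without a fold threshold. Tables and plots were made with Python. The fit was tested on simulated data. A first version with a single simulated data set and a fixed tolerance failed for 1 class of genes in the difference between organs, after which the test was changed to an average of 20 simulated data sets with a limit set by its standard error, which was met; the fit was not changed. The labels call the replicates biological, and the methods also call them independent. Neither says whether they were separate plants or cultures, so p-values measure the spread between these arrays. The number of arrays limits the precision.

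Members and lists were chosen with earlier results of these data known. Named genes are the 12 largest rises and falls among called genes without overlap, the 10 of each sign with a symbol, the 5 of each sign in each difference, up to 4 called members of each list, the measured sulfur list members and genes the study names. Other genes were named after their values were seen. Alternatives changed the spread, normalization, filter, probe sets, replicate block and arrays included. Promoter motifs and cytoplasmic ribosomal proteins were not analysed here.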

Additional observations from a re-analysis of the deposited data

Results flagged for a closer look

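Responses that differed between lines stood out in 10 genes, by the test of the difference itself. The response of OX7.5 minus that of WT shoots was -3.59 for AT1G68500, -3.38 for COR27, -2.51 for AT4G25433, -2.49 for AT1G10585 and -2.45 for AT1G70640. It was 2.45 for AT1G19210, 2.01 for AT3G44870, 1.79 for AT1G20500, 1.63 for AT1G74458 and 1.59 for AT3G11773. AT4G25433 passed in 12 of 20 alternatives, AT3G11773 in 18 of 20 (adjusted p up to 0.159 in limma), AT1G68500 and AT1G19210 in 19 of 20 (up to 0.0951 and 0.0576) and AT3G44870 in 18 of 19 (up to 0.0724).

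Responses that differed between organs stood out in another 10 genes. The response of OX7.5 shoots minus that of roots was -6.33 for AT2G38823, -6.23 for GSTU25, -5.84 for AT5G38910, -5.84 for AT5G13210 and -4.89 for AT5G09570. It was 4.45 for AT2G22122, 4.22 for GLR2.3, 4.00 for AT5G14120, 3.86 for AT1G70880 and 3.60 for AT4G39675.

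A further signal lies in the 11079 probe sets that the annotation pairs with no gene and that entered no comparison above. In OX7.5 shoots 940 of them rose and 802 fell, 15.7% in all, with log2 fold changes up to 4.72.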

How the results depend on the processing

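In OX7.5 shoots the count of 1868 became 3723 with every probe set and 598 at a fold of at least 2, and leaving out 1 array at a time gave 1562 to 1997. The replicate block gave 1876. Same-numbered arrays of nS and -S correlated at 0.143, 0.00949 and 0.117 in their deviations. The highest correlations with an array of another number were -0.0732, 0.0399 and 0.0632. So few pairs cannot settle whether arrays were paired by replicate number. For the difference between lines, 89 became 11 with shoot arrays only, 25 without moderation and 134 with every probe set, 43 to 215 without 1 array, and 104 with the replicate block. For the difference between organs, 2627 became 1645 with dim genes left out and 4922 with every probe set, 2201 to 2547 without 1 array, and 2597 with the replicate block. Where an array is left out, the arm keeps 2 arrays. More probe sets or genes tested changes the counts by construction, and the other causes were not tested.

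Of 177 called genes followed, 131 kept the call in every alternative and 46 lost it in at least 1. None reversed. Of 32 group medians, 18 moved by over 1 SD between replicates, often with dim genes left out, where CC-type glutaredoxins came to -0.64 and glutamate receptor-like genes to 0.61. Dim genes have no detection calls, so signal over background limits the size of their changes.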
